A study of Mus musculus with 10 samples.

Results

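Genes of hepatic stellate cells and of the collagen matrix were examined in whole livers of mouse fetuses at E18.5 (late gestation). The genes were named one by one. They are the fibrillar collagen genes Col1a1, Col1a2 and Col3a1, the small leucine-rich proteoglycan genes Dcn and Lum, the stellate cell genes Des, Reln, Lrat and Pdgfrb, and the contractile gene Acta2. All 10 were found among the 55401 genes of the count table, and all 10 were among the 14098 genes that were tested after removal of low counts. The comparison asks whether loss of the microRNA gene Mir483 altered these genes in fetal liver.

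The 5 Mir483Pat-KO fetuses had inherited a deletion of Mir483 from their father, and the allele from their mother was intact. The 5 WT fetuses were littermates without the deletion. All fetuses were female, and the mice descend from C57BL/6N embryonic stem cells bred into a C57BL/6J colony. The stem cells had undergone Cre excision in culture, so the deletion was present in all tissues and no Cre was driven in a chosen liver cell. More than 1 stem cell clone was injected, and the clone behind each fetus is not given in the sources used here. The p-values measure the spread between the fetuses of these litters.

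Total counts ranged from 10831350 to 14765880 per library. Mir483 itself had 10 to 22 counts in the WT libraries and 0 counts in all 5 Mir483Pat-KO libraries, where a count of 0 allows up to 3 counts per library. The fetus numbers in the labels form a lower range with 4 WT and 2 Mir483Pat-KO libraries and an upper range with 1 WT and 3 Mir483Pat-KO libraries. What the ranges stand for is not stated. Sequencing indexes were numbered by genotype, so their order and the genotype cannot be told apart.

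Stellate cells lie between the endothelium of the liver sinusoids and the hepatocytes, and they store vitamin A as retinyl esters. After injury they turn into contractile, collagen-secreting myofibroblasts, and they are best known as the main source of scar matrix in the diseased liver. Collagen is also made by fibroblasts around the portal veins and bile ducts, and in the fetus part of the liver mesenchyme derives from the mesothelium at its surface. Fibrillar collagens are secreted as triple helices that are trimmed, assembled into fibrils and cross-linked, and Dcn and Lum are proteoglycans that bind the fibrils and govern their width. In RNA of a whole liver, fewer cells of a type and less RNA per cell cannot be told apart.

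The deleted gene gives rise to a pair of mature microRNAs, which are shown because the letters they would pair with were searched for in the 10 genes. Sequences and positions are those of RefSeq (GRCm38.p6), capitals mark the seed (bases 2 to 8), and both lie on the minus strand of chromosome 7, at chr7:142654932-142654952 for the 3p arm and chr7:142654968-142654989 for the 5p arm.
mmu-miR-483-3p: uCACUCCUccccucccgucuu
mmu-miR-483-5p: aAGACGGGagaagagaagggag
The site that pairs with the 3p seed, AGGAGTG, was present in the longest annotated 3′ UTR of 1620 of the 12874 genes tested that had one (12.6%) and in 0 of the 10 stellate cell and collagen genes. The site that pairs with the 5p seed, CCCGTCT, was present in 422 genes (3.28%) and in 1 of the 10, Col1a1. It lies in the 3′ UTR of 1423 bases at chr11:94952119-94952125 (GRCm38, plus strand), and the letters around it are shown with the site in capitals.
Col1a1 site: ccctcaacCCCGTCTacttccct
A match is a description of letters and not evidence that the microRNA binds there.

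The bases before the start site of Col3a1 and Reln are shown because these were the most abundant collagen and the most abundant stellate cell gene of the 10 by CPM (counts scaled to a common library size), and because both were lower in the Mir483Pat-KO libraries before adjustment for multiple tests. Each is 250 bases long and comes from the RefSeq table of GRCm38.p6, for Col3a1 from the plus strand of chr1:45311288-45311537 and for Reln from the minus strand of chr5:22344706-22344955. Capitals mark a TATA box (TATAAA) or a GC box (GGGCGG), each searched on both strands.
Col3a1: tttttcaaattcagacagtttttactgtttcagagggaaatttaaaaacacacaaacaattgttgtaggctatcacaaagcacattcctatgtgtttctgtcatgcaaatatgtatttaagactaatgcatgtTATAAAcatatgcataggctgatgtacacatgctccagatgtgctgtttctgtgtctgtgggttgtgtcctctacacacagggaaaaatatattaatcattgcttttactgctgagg
Reln: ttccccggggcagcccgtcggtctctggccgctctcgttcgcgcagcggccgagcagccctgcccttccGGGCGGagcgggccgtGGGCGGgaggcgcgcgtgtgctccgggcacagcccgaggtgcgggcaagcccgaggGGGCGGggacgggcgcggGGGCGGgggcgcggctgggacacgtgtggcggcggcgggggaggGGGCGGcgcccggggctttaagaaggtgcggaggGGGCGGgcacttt
The Col3a1 stretch held 1 TATA box and 0 GC boxes, and the Reln stretch held 6 GC boxes and 0 TATA boxes. Among 32851 stretches of the same length in the table, 12.4% held a TATA box and 32.7% held a GC box.

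All 10 genes were measured in every library, from 44 counts of Des in its lowest library to 4101 counts of Reln in its highest. To compare genes with each other, the WT level was divided by the length of the merged exons. On this scale Col3a1 stood highest at 22.1 ± 7.04 CPM per kilobase (SD, n = 5), followed by Col1a1 at 20.4 ± 8.71 and Dcn at 20.0 ± 3.39, and the ranges of these 3 overlapped. Acta2 at 12.7 ± 1.56, Reln at 11.3 ± 1.54, Col1a2 at 11.0 ± 4.13 and Lum at 10.4 ± 2.1 formed the next tier, whose neighbours also overlapped. Every WT library of Acta2 lay below every WT library of Dcn. Pdgfrb at 4.02 ± 0.705 was apart from Lum above it and from Lrat below it, and Lrat at 2.35 ± 0.277 overlapped with Des at 1.74 ± 0.303. The middle of this order depended on the length used. Divided by the longest transcript, Col1a2 came next to Col3a1 at 25.7 CPM per kilobase, followed by Dcn at 24.9, Reln at 22.9 and Col1a1 at 22.6.

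**Figure D1:**
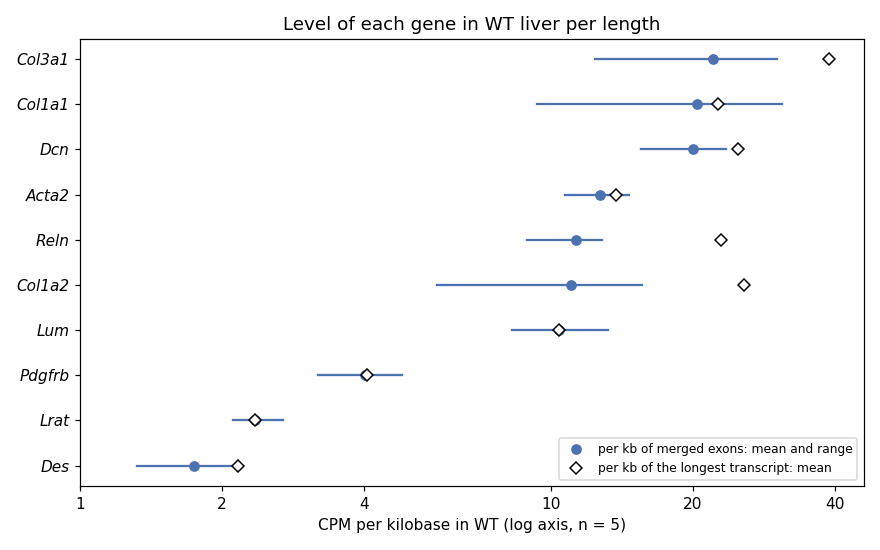
WT level of each gene in CPM per kilobase on a log axis, where circles and lines give the mean and range of 5 libraries per kilobase of merged exons and open diamonds the mean per kilobase of the longest transcript. Col3a1 is highest on both scales, Des is lowest on both, and Col1a2 and Reln move most between the scales.

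Col1a1 and Col1a2 encode the chains of type I collagen, and Col3a1 encodes type III collagen. Col1a1 (ENSMUSG00000001506, chr11:94936224-94953042) was at 61.2, 121, 180, 203 and 105 CPM in WT replicates 1 to 5 and at 88.2, 94.2, 68.2, 66.3 and 143 CPM in Mir483Pat-KO replicates 1 to 5. The lowest library of all was thus WT replicate 1, the highest was WT replicate 4, and the whole Mir483Pat-KO range lay inside the WT range. The log2 fold change of Mir483Pat-KO against WT was −0.54 (SE 0.26, 95% confidence interval −1.09 to 0.00095, adjusted p = 0.226, edgeR). Without WT replicate 4 it was −0.36, and without Mir483Pat-KO replicate 5 it was −0.77.

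Col1a2 (ENSMUSG00000029661, chr6:4504814-4541544) had 70.9, 129, 183, 194 and 109 CPM in WT and 83.7, 98.1, 79.5, 78.1 and 146 CPM in Mir483Pat-KO. The order of the libraries was the same as for Col1a1 in WT, and the Mir483Pat-KO range again lay inside that of WT. Its log2 fold change was −0.50 (SE 0.22, interval −0.97 to −0.026, adjusted p = 0.201). Col3a1 (ENSMUSG00000026043, chr1:45311538-45349706) had 121, 213, 267, 297 and 184 CPM in WT and 138, 157, 125, 122 and 212 CPM in Mir483Pat-KO. Only 1 Mir483Pat-KO library, replicate 5, came near the middle of the WT libraries. The log2 fold change of Col3a1 was −0.52 (SE 0.19, interval −0.93 to −0.11, adjusted p = 0.127). None of the 3 collagens passed the adjusted threshold with all 10 libraries. Without WT replicate 1, Col1a2 (−0.67, adjusted p = 0.0466) and Col3a1 (−0.68, adjusted p = 0.0238) passed, whereas Col1a1 (−0.73, adjusted p = 0.0539) did not.

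Dcn and Lum encode decorin and lumican. Dcn (ENSMUSG00000019929, chr10:97479609-97518143) was at 90.7, 135, 137, 107 and 113 CPM in WT and at 125, 107, 102, 94.1 and 101 CPM in Mir483Pat-KO. The groups overlapped throughout, with a log2 fold change of −0.14 (SE 0.11, interval −0.36 to 0.087, adjusted p = 0.476). Lum (ENSMUSG00000036446, chr10:97565128-97572703), its neighbour on the same chromosome, had 20.2, 28.7, 32.3, 25.6 and 20.7 CPM in WT and 23.5, 25.9, 22.3, 22.6 and 27.6 CPM in Mir483Pat-KO. All Mir483Pat-KO libraries lay within the WT range, and the log2 fold change was −0.064 (SE 0.12, interval −0.32 to 0.19, adjusted p = 0.798). The intervals leave room for decreases of Dcn and Lum to 0.777-fold and 0.802-fold of WT. The estimate of Dcn moved most of the 10 under offsets for GC content and length. With 37.4% G and C in its exons it is the most AT-rich of the 10, and under these offsets its log2 fold change was −0.39 (adjusted p = 0.0526).

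Reln encodes reelin, a large secreted glycoprotein known from the layering of the brain and made in the liver by stellate cells. It was at 211, 303, 293, 255 and 276 CPM in WT and at 268, 197, 187, 155 and 205 CPM in Mir483Pat-KO (ENSMUSG00000042453, chr5:21884454-22344702). Mir483Pat-KO replicates 2 to 5 lay below every WT library, and replicate 1 lay among them. For Reln the log2 fold change of −0.40 (SE 0.12, interval −0.66 to −0.14, adjusted p = 0.0664) did not pass. Left out in turn, WT replicate 1 (−0.48, adjusted p = 0.0327) and replicate 1 of Mir483Pat-KO (−0.53, adjusted p = 0.00942) each gave a fit in which Reln passed, and it passed in the DESeq2 test (−0.41, adjusted p = 0.0259). With the replicate number as a block it was −0.42 (adjusted p = 0.0472), although equal numbers are not known to pair fetuses. Over all 21 alternatives the log2 fold change ran from −0.53 to −0.19.

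Pdgfrb encodes the receptor through which platelet-derived growth factor drives stellate cells to divide. It had 17.5, 19.4, 25.5, 26.4 and 21.1 CPM in WT and 19.7, 18.2, 13.6, 12.4 and 15.0 CPM in Mir483Pat-KO (ENSMUSG00000024620, chr18:61045150-61085061). Mir483Pat-KO replicates 3, 4 and 5 lay below every WT library, and replicates 1 and 2 lay among the lower WT values. Its log2 fold change was −0.48 (SE 0.14, interval −0.77 to −0.19), and the adjusted p of 0.0511 lay just above the threshold. It passed under 8 of 21 alternatives, more than any other of the 10 genes, among them limma-voom (adjusted p = 0.0494), the DESeq2 test (adjusted p = 0.0179) and the fits without WT replicate 1 (−0.56, adjusted p = 0.0299), WT replicate 2 (−0.53, adjusted p = 0.0418) and replicate 1 of Mir483Pat-KO (−0.58, adjusted p = 0.0233). Its value stayed between −0.58 and −0.24 in all 21.

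Des encodes desmin, an intermediate filament protein of muscle and of rodent stellate cells. It was the least abundant of the 10, at 4.97, 6.28, 6.58, 8.16 and 6.69 CPM in WT and at 3.44, 5.71, 4.83, 4.15 and 6.85 CPM in Mir483Pat-KO (ENSMUSG00000026208, chr1:75360329-75368579). Replicates 1, 3 and 4 of Mir483Pat-KO lay below every WT library. Its log2 fold change was −0.38 (SE 0.18, interval −0.76 to −0.0026, adjusted p = 0.222). An antisense gene overlaps 5.9% of the exons of Des, and the strand setting of the counting is not stated.

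Lrat encodes lecithin retinol acyltransferase, the enzyme that makes the retinyl esters stored in stellate cells. It had 11.3, 14.0, 14.4, 11.5 and 11.8 CPM in WT and 19.8, 17.8, 8.73, 7.85 and 9.02 CPM in Mir483Pat-KO (ENSMUSG00000028003, chr3:82892579-82903973). Every Mir483Pat-KO library therefore lay outside the WT range, with 2 above it and 3 below it. The means were equal at 12.6 CPM, with an SD of 1.48 in WT and 5.69 in Mir483Pat-KO, and the log2 fold change was 0.0059 (SE 0.22, interval −0.46 to 0.47, adjusted p = 0.991). It was below 0 under 8 of 21 alternatives and above 0 under the others.

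The 2 high Lrat libraries were the Mir483Pat-KO libraries of the lower number range, with a mean of 18.8 CPM, and the 3 low ones were those of the upper range, with a mean of 8.53 CPM. In WT the 4 libraries of the lower range had a mean of 12.8 CPM and the single library of the upper range had 11.8 CPM. Within the lower range alone, with 4 WT and 2 Mir483Pat-KO libraries, the log2 fold change of Lrat was 0.55 (adjusted p = 0.135). The upper range holds too few WT libraries for a test. Pdgfrb was also split by range in Mir483Pat-KO, with means of 18.9 CPM in the lower and 13.6 CPM in the upper range, and in WT its means were 22.2 and 21.1 CPM. Dcn was split too, with means of 116 and 99.0 CPM in Mir483Pat-KO and of 118 and 113 CPM in WT. The Reln means were 233 and 182 CPM in Mir483Pat-KO and 266 and 276 CPM in WT, but its Mir483Pat-KO libraries overlapped, with replicate 2 of the lower range (197 CPM) below replicate 5 of the upper range (205 CPM). Within the lower range alone the log2 fold change was −0.19 for Reln (adjusted p = 0.601), −0.24 for Pdgfrb (adjusted p = 0.545) and −0.017 for Dcn (adjusted p = 0.974). With range as a covariate the log2 fold changes were −0.34 for Reln, −0.38 for Pdgfrb and 0.21 for Lrat, and none of them passed. Summed CPM of 10 erythroid genes was split by range in Mir483Pat-KO as well, at 19149 and 20842 in replicates 1 and 2 against 27097, 27162 and 25292 in replicates 3 to 5. In WT it was 16402 to 21061 in the lower range and 16705 in the upper range. Summed hepatocyte and macrophage markers were also split in Mir483Pat-KO. Hepatocyte sums were 228856 and 218640 against 205731, 199045 and 200950 CPM. Macrophage sums were 799 and 754 against 988, 837 and 927 CPM. The part of these cell types in the values of the 10 genes by range was not tested.

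Acta2 encodes smooth muscle actin, which marks vessel walls and activated stellate cells. It was at 30.5, 27.1, 23.4, 32.0 and 26.1 CPM in WT and at 20.7, 26.7, 41.7, 22.0 and 29.8 CPM in Mir483Pat-KO (ENSMUSG00000035783, chr19:34241090-34255590). Mir483Pat-KO replicate 3 was the highest of all libraries, and replicates 1 and 4 were below all WT libraries. The log2 fold change was 0.024 (SE 0.15, interval −0.30 to 0.35, adjusted p = 0.948), and without replicate 3 of Mir483Pat-KO it was −0.17. That library was the highest of its group for Acta2 alone among the 10 genes.

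**Figure D2:**
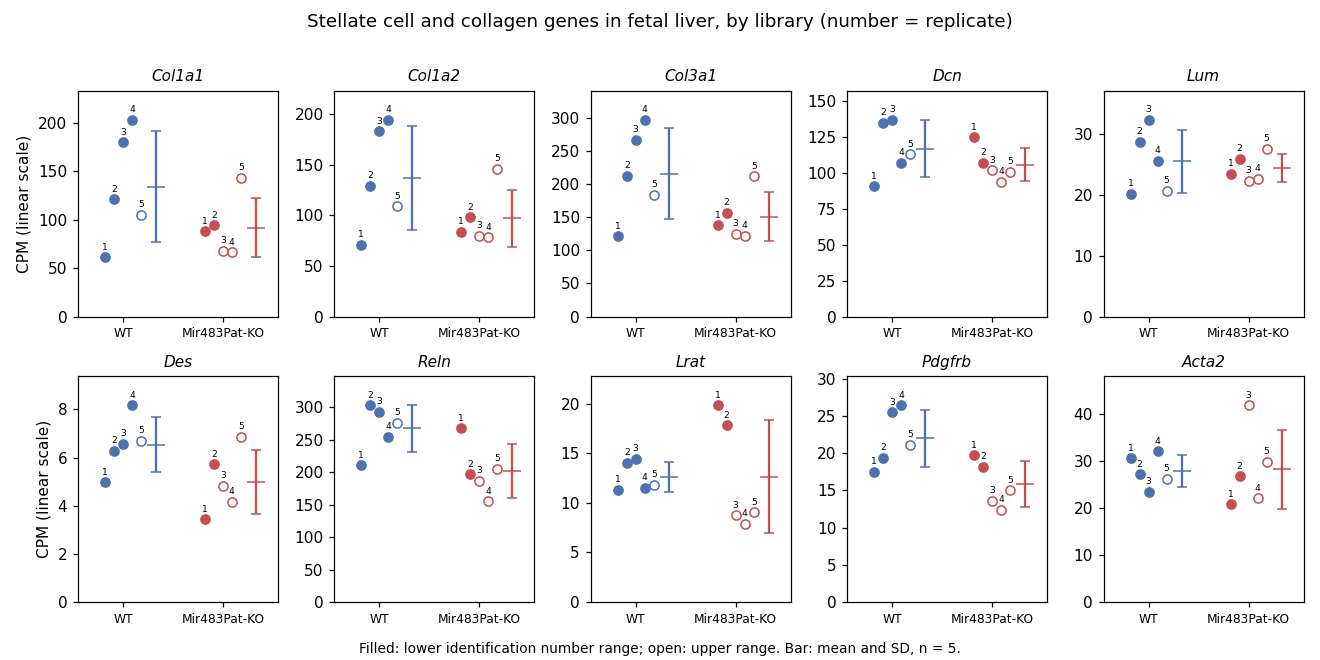
CPM of each of the 10 genes on a linear axis in the 5 WT and 5 Mir483Pat-KO livers, with the replicate number at each point, filled points for the lower and open points for the upper number range, and bars for the mean and SD. The groups overlap for all 10 genes, WT replicate 1 is the lowest WT library in 9 panels, and the Mir483Pat-KO libraries of Lrat lie on both sides of the WT range.

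Counted together, 0 of the 10 genes passed at an adjusted p under 0.05 in either direction, whereas 2.76% of all genes tested were lower and 2.43% were higher in Mir483Pat-KO at that threshold. At the stricter call, which also asks for a fold change over 1.5, 0 of the 10 were called against 1.23% of all genes tested. Groups without overlap were found for 0 of the 10 and for 6.6% of all genes. Before adjustment, 5 of the 10 (Col1a2, Col3a1, Des, Reln and Pdgfrb) had p under 0.05, all lower in Mir483Pat-KO, where 10.7% of all genes tested were lower at that p and 11.5% were higher. The log2 fold change was below 0 for 8 of the 10, with a median of −0.39, beside 49.1% below 0 and a median of 0.0042 over all genes tested. Genes measured in the same libraries are not independent, so such counts are a description. Deviations of the 3 collagens from their group means followed the mean of the other genes of the 10 (Pearson r of 0.883 to 0.923). DESeq2 passed 2 (Reln and Pdgfrb) beside 4.78% of all genes with an adjusted p that were lower, limma-voom passed 1 (Pdgfrb) beside 2.84%, and leaving out WT replicate 1 raised the count to 4 (Col1a2, Col3a1, Reln and Pdgfrb) beside 2.91%. Of these 4, Col1a2 and Col3a1 also exceeded the fold of 1.5. It was 2 when Mir483Pat-KO replicate 1 was dropped (Reln and Pdgfrb, beside 3.34%), 1 when WT replicate 2 was dropped (Pdgfrb, beside 3.33%), and 0 when any of the other 7 libraries was left out. Without the low-count filter 5 of the 10 passed (Col1a1, Col1a2, Col3a1, Reln and Pdgfrb), beside 2.2% of the 28428 genes then tested that were lower. In that fit the prior degrees of freedom, which set how far each gene's own variance is drawn to the common trend, rose from 8.32 to 106.

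**Figure D3:**
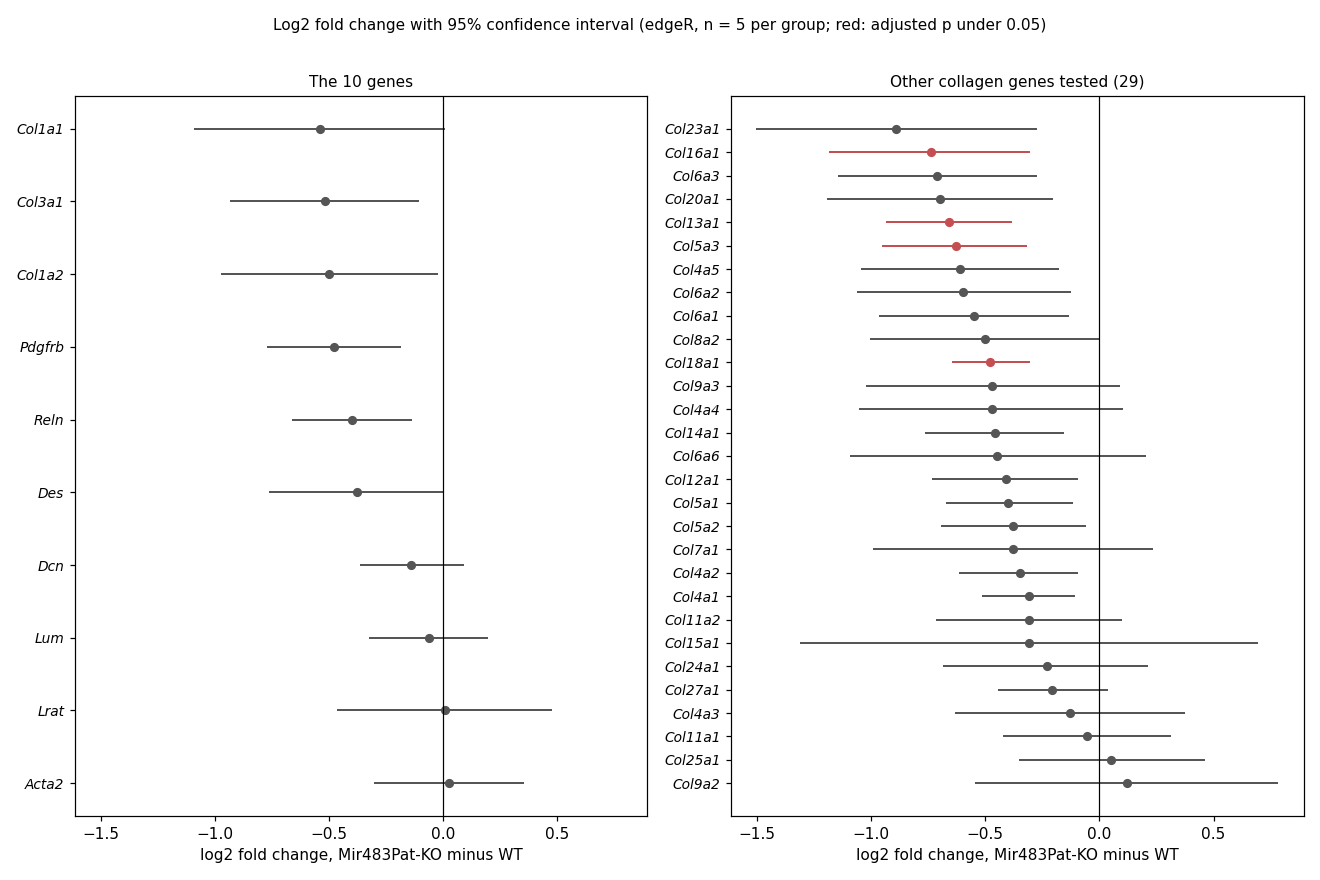
Log2 fold change of Mir483Pat-KO minus WT with its 95% confidence interval, for the 10 genes on the left and the 29 other collagen genes tested on the right, where red marks an adjusted p under 0.05. None of the 10 is red, 8 lie left of 0, and on the right 27 of 29 lie left of 0 with 4 in red.

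Within WT, the highest library exceeded the lowest by 1.27-fold for Lrat and by up to 3.31-fold for Col1a1. WT replicate 1 had the lowest WT value for 9 of the 10 genes, all but Acta2, and the lowest value of all libraries for 5 of them. WT replicate 4 had the highest WT value for 6 genes (the 3 collagens, Des, Pdgfrb and Acta2). In Mir483Pat-KO, replicate 4 was lowest for 7 genes and replicate 5 was highest for 5 (the 3 collagens, Lum and Des), whereas replicate 1 was highest for Dcn, Reln, Lrat and Pdgfrb. The mean of the 10 genes deviated from the group mean by −0.43 on the log2 scale in WT replicate 1, by 0.24 in WT replicates 3 and 4, by −0.30 in Mir483Pat-KO replicate 4 and by 0.22 in Mir483Pat-KO replicate 5.

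**Figure D4:**
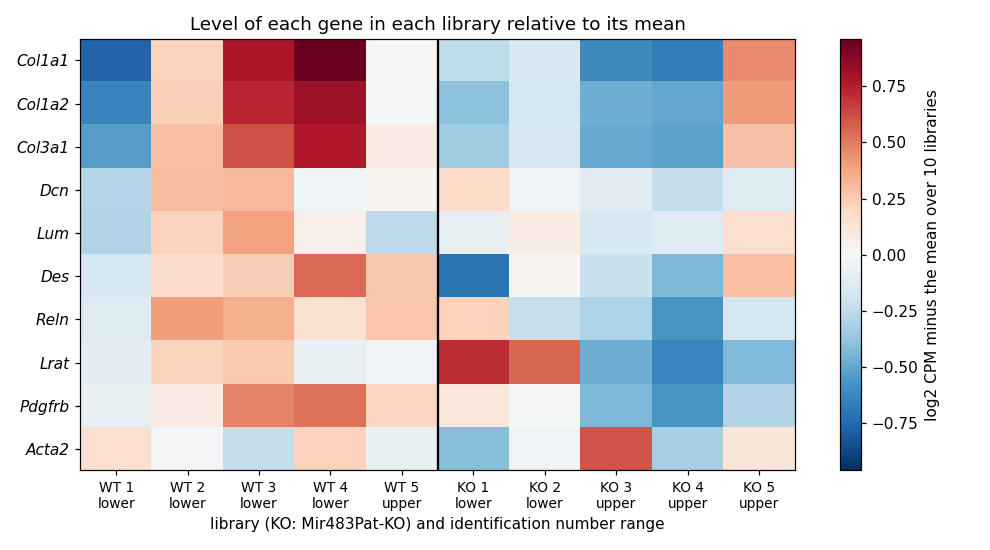
Log2 CPM of each gene in each library minus the mean of that gene over the 10 libraries, in blue where lower and red where higher, with WT on the left of the black line and Mir483Pat-KO (KO) on the right. The 3 collagen rows share nearly the same colours, from the lowest values in WT replicate 1 to the highest in WT replicate 4, and the Lrat row splits Mir483Pat-KO by number range.

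The ratios between the 3 collagens varied less than their levels. Col1a1 differed 3.31-fold between its highest and lowest library, yet its ratio to Col1a2 in the same library stayed between 0.849 and 1.05, and the ratio of Col3a1 to Col1a2 stayed between 1.46 and 1.71. The ratio of Col3a1 to Col1a1 ran from 1.46 in WT replicate 4 to 1.98 in WT replicate 1, a span of 1.35-fold. The ratio of Col1a1 to Dcn was less steady and ran from 0.666 to 1.90, a span of 2.85-fold, with the widest spread in WT. The ratio of Dcn to Lum ran from 3.64 to 5.45, a span of 1.5-fold, which was about that of Dcn alone (1.52-fold) and of Lum alone (1.59-fold). Reln over Dcn was 2.13 to 2.44 in WT and 1.65 to 2.14 in Mir483Pat-KO, so that Mir483Pat-KO replicate 1 was the only library of its group to reach the WT range. Reln over Lrat was 18.7 to 23.5 in WT, 13.5 and 11.1 in Mir483Pat-KO replicates 1 and 2, and 19.8 to 22.7 in replicates 3 to 5. The ratio of Acta2 to Col1a1 varied most, by 4.70-fold. These ratios are descriptions chosen after the values were seen.

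Outside the set, the genes whose deviations from the group means were most like the mean deviation of the 10 were Frem2 (Pearson r = 0.957), Col6a2 (0.948), Col6a6 (0.942), Mfap2 (0.942), Mmp2 (0.937), Col6a3 (0.936), Tns3 (0.935) and Egflam (0.935). The points are 10 libraries that each gene shares with the set, including their depth and composition, so that the values are given as a description. Of these 8 genes, 3 are collagens of type VI and 2 more are on the lists of matrix proteins and of proteases. All 8 were lower in Mir483Pat-KO on average and none passed, from −0.15 for Tns3 (adjusted p = 0.299) to −0.71 for Col6a3 (adjusted p = 0.0531).

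Among the other collagen genes most estimates for Mir483Pat-KO against WT were below 0, and 4 passed the threshold. There were 41 such genes, of which 29 could be tested. Of these, 27 had a log2 fold change below 0, and the median was −0.45. The 4 that passed were Col18a1, Col13a1, Col5a3 and Col16a1, which is 13.8% of the 29 beside 2.76% of all genes tested, and 0 passed in the other direction. Before adjustment 17 of the 29 had p under 0.05, all lower, beside 10.7% of all genes tested. Groups without overlap were found for 3 of the 29, all lower, beside 3.26% of all genes tested. Col18a1, whose protein is a basement membrane collagen that releases endostatin, was at 885, 881, 989, 985 and 1045 CPM in WT and at 752, 650, 689, 608 and 740 CPM in Mir483Pat-KO. Every Mir483Pat-KO library was below every WT library, with a log2 fold change of −0.48 (SE 0.078, adjusted p = 0.00401). By CPM it exceeded every one of the 10 genes.

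Col13a1, a collagen that spans the plasma membrane, fell from 7.41 ± 0.584 to 4.68 ± 0.625 CPM (SD, n = 5 each; log2 fold change −0.66, adjusted p = 0.00948), and its groups did not overlap. Col5a3, a minor chain of type V fibrils, fell from 12.4 ± 1.43 to 8.01 ± 1.98 CPM (−0.63, adjusted p = 0.0238), also without overlap. Col16a1, a collagen found at the surface of fibrils, was lower by 0.74 on the log2 scale (adjusted p = 0.0473) with groups that overlapped, and it was named because it completes the count of 4. Col18a1 and Col13a1 passed with any library left out. Col5a3 did not pass when WT replicate 3 or 4 or Mir483Pat-KO replicate 4 was left out, and Col16a1 passed in only 3 of the 10 such fits. The count of other collagens that passed was 11 without WT replicate 1, 6 without any one of WT replicate 2 and Mir483Pat-KO replicates 1 and 5, and 2 without any one of WT replicates 3 and 4 and Mir483Pat-KO replicate 4. In the DESeq2 test it was 8, and with offsets for GC content and length it was 2, at a median of −0.35.

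Enzymes and chaperones that modify, fold, trim and cross-link collagen numbered 27 tested genes, of which 21 had a log2 fold change below 0 (median −0.14) and 1 passed. With 2.76% of all genes tested lower at this threshold, 1 gene of a list of this size is near the background. That gene was Bmp1, the protease that removes the C-terminal propeptide of fibrillar collagens, which fell from 104 ± 4.24 to 83.9 ± 7.82 CPM (log2 fold change −0.31, adjusted p = 0.0227). Its groups did not overlap, and it did not pass without Mir483Pat-KO replicate 4 (adjusted p = 0.0616). Adamts14 and Adamts2, which remove the N-terminal propeptide, stood at −0.54 (adjusted p = 0.0528) and −0.53 (adjusted p = 0.074). With WT replicate 1 left out 3 genes of this list passed, and with Mir483Pat-KO replicate 5 left out 2 did.

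Proteins of elastic fibres, microfibrils and other matrix were below 0 for 26 of 28 tested genes (median −0.32), and 1 passed. This is 3.57% of the list, near the 2.76% of all genes tested that were lower. Before adjustment, however, 13 of the 28 had p under 0.05, all of them lower, beside 10.7% of all genes tested. Ltbp4, which tethers latent TGF-beta to microfibrils, fell from 47.5 ± 12.4 to 31.8 ± 5.79 CPM (log2 fold change −0.58, adjusted p = 0.0469), with overlapping groups. Fbn1, the microfibril protein fibrillin 1, was at −0.54 (adjusted p = 0.0616), and Ltbp1 was at −0.40 (adjusted p = 0.0635) with groups that did not overlap. The count of this list rested on single libraries. It was 10 when WT replicate 1 was left out, 2 for WT replicate 2 and for Mir483Pat-KO replicate 1, 1 for Mir483Pat-KO replicate 5, and 0 for each of the other 6. Other small leucine-rich proteoglycans had 6 tested genes, 4 of them below 0, and 0 passed in the edgeR test. At an unadjusted p under 0.05 there was 1 of the 6, beside 22.2% of all genes tested. Prelp was at −0.26 (adjusted p = 0.168), Bgn at −0.22 (adjusted p = 0.29) and Podn at −0.27 (adjusted p = 0.567), whereas 1 passed without Mir483Pat-KO replicate 1.

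Among 16 tested matrix proteases and inhibitors, 14 were below 0 (median −0.18) and 1 passed. This is 6.25% beside 2.76% of all genes tested that were lower, and the count is of 1 gene. Mmp14, a membrane-bound collagenase, fell from 84.7 ± 5.83 to 67.0 ± 5.84 CPM (log2 fold change −0.34, adjusted p = 0.018) with no overlap, and it failed the threshold without Mir483Pat-KO replicate 4 (adjusted p = 0.0524). Mmp19 was at −0.24 (adjusted p = 0.116) and Mmp9 at −0.27 (adjusted p = 0.127). The count was 2 without WT replicate 1, 2 or 3. Of 9 collagen receptors 7 were below 0 (median −0.11), and 0 passed in edgeR with 0 at an unadjusted p under 0.05. The receptors nearest the threshold were Itga1 (−0.14), Lair1 (−0.21) and Itga2 (−0.21), at adjusted p from 0.468 to 0.501.

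Further markers of stellate cells were present in these livers, and all 25 were tested. Of these, 17 were below 0 (median −0.20), 1 fell and 0 rose. The 1 of 25 is 4%, near the 2.76% of all genes tested that were lower, and is no result about the list. Ecm1, a secreted matrix protein, fell from 50.7 ± 7.19 to 37.6 ± 6.97 CPM (log2 fold change −0.43, adjusted p = 0.0448) with overlapping groups. Adamtsl2 was at −0.74 (adjusted p = 0.0639) and Ngfr, a neurotrophin receptor, was at −0.66 (adjusted p = 0.071) with no overlap. Left out in turn, Mir483Pat-KO replicate 1 gave a count of 4, WT replicate 2 of 3, WT replicate 1 of 2 and each of the other 7 of 0. Summed CPM of the 25 was 590 to 703 in WT and 597 to 664 in Mir483Pat-KO, whereas that of the 10 genes was 640 to 1163 and 585 to 894.

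Markers of neighbouring mesenchymal cells were examined because the collagens are not particular to stellate cells. Of the portal fibroblast markers 7 of 9 were tested and all 7 were below 0 (median −0.13), and 1 passed, which is 14.3% beside 2.76% of all genes tested that were lower. Smoc2, a secreted calcium-binding matrix protein, fell from 28.7 ± 8.1 to 18.7 ± 0.994 CPM (log2 fold change −0.62, adjusted p = 0.0247) without overlap. It did not pass when WT replicate 4 or Mir483Pat-KO replicate 2 or 4 was left out. Mgp, an inhibitor of calcification, was at −0.51 (adjusted p = 0.479), and Gli1 was at −0.25 (adjusted p = 0.669). Of 7 mesothelial markers 4 were below 0 (median −0.21) and 0 passed in edgeR, with 2 at an unadjusted p under 0.05 beside 22.2% of all genes tested. These were Upk3b (−0.39, adjusted p = 0.112) and Msln (−0.47, adjusted p = 0.115), and both passed without WT replicate 1. Lrrn4 was at −0.27 (adjusted p = 0.505). Of 11 smooth muscle genes 8 were below 0 (median −0.15) and 0 passed, with 3 at an unadjusted p under 0.05 beside the same 22.2% of all genes. Smtn was at −0.25 (adjusted p = 0.0811), Mylk at −0.22 (adjusted p = 0.108, passing without Mir483Pat-KO replicate 1) and Tpm1 at 0.20 (adjusted p = 0.179).

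WT replicate 1 was the lowest WT library for most of these lists as well. Its summed CPM was the lowest in WT for the 10 genes (640), the other collagens (1606), the elastic and matrix proteins (1171), the further stellate cell markers (590) and the mesothelial markers (22.7, against 34 to 41.9 in the other WT libraries). It was not the lowest for portal fibroblast markers (73, where WT replicate 2 had 52.9) or smooth muscle genes (518, where WT replicate 5 had 507). What part the makeup of this liver sample has in the comparison was not tested.

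Genes of signals that act on stellate cells lay on both sides of 0. Of 19 ligands, receptors and mediators of PDGF and TGF-beta 8 were below 0, with a median of 0.011. In edgeR 0 passed, with 4 at an unadjusted p under 0.05 beside 22.2% of all genes tested, and 0 passed with any library left out. Tgfb1, the best known inducer of collagen synthesis, was at −0.24 (adjusted p = 0.0818) with no overlap. Ccn1, a secreted matrix-associated protein, was at 0.64 (adjusted p = 0.178), and Smad7, an inhibitor of TGF-beta signalling, was at 0.36 (adjusted p = 0.187).

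Of 16 tested vitamin A genes around Lrat 2 fell, which is 12.5% beside 2.76% of all genes tested. Rbp4, the plasma carrier of retinol made by hepatocytes, fell from 1429 ± 64.8 to 1072 ± 98.0 CPM, by 0.41 on the log2 scale (adjusted p = 0.0058). Rbp2, a cellular retinol-binding protein, fell from 215 ± 19.6 to 157 ± 11.5 CPM (−0.45, adjusted p = 0.00455). Neither had overlapping groups, and both passed with any library left out. Of the 16, 9 were below 0 (median −0.12), and Rxra, a partner of the retinoic acid receptors, was at −0.27 (adjusted p = 0.0579) and passed without WT replicate 1. Of 4 genes that act with reelin 2 were below 0, and Pafah1b1 rose from 114 ± 8.8 to 136 ± 4.85 CPM (log2 fold change 0.26, adjusted p = 0.0381) without overlap. This 1 gene is 25% of the list, beside 2.43% of all genes tested that were higher. Pafah1b1 passed in only 3 of 10 fits with a library left out (those without WT replicate 1 or 2 or the first Mir483Pat-KO replicate). The reelin receptor Vldlr was at −0.39 (adjusted p = 0.148), and it passed without Mir483Pat-KO replicate 1, where the count of the list was 2. The adaptor Dab1 was at 0.39 (adjusted p = 0.372).

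Markers of other liver cells were counted in the same way, beside 2.76% of all genes tested that were lower and 2.43% that were higher, and most of them did not pass. Of 12 endothelial markers 11 were below 0 (median −0.18) and 2 fell (16.7%), Vwf (log2 fold change −0.42, adjusted p = 0.018) and Tie1 (−0.33, adjusted p = 0.0227), while Pecam1 was at −0.20 (adjusted p = 0.0884). Vwf passed with any library left out, and Tie1 did not pass when WT replicate 4 or Mir483Pat-KO replicate 3 or 4 was left out. Their summed CPM was 695 to 774 in WT and 581 to 716 in Mir483Pat-KO. Of 11 macrophage markers 6 were below 0 (median −0.13) and 2 fell (18.2%), C1qa (−0.29, adjusted p = 0.0389) and Clec4f (−0.46, adjusted p = 0.0416), with C1qc at −0.31 (adjusted p = 0.0711). The other 5 were above 0, by up to 0.30 on the log2 scale for Cd5l (adjusted p = 0.112), named after its value was seen, and 0 rose past the threshold. The macrophage count was 0 when any one of WT replicates 4 and 5 and Mir483Pat-KO replicates 2, 4 and 5 was left out, 1 for replicate 1 of either group and 3 for Mir483Pat-KO replicate 3. The summed CPM was 852 to 1058 in WT and 754 to 988 in Mir483Pat-KO.

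Erythroid genes lay mostly above 0. Of 10 tested 9 were above 0 (median 0.26), and 2 rose (20.0%, beside 2.43% of all genes tested), among them Hbb-bs (0.54, adjusted p = 0.012), with Hbb-bt at 0.40 (adjusted p = 0.069). Hbb-bs and Hbb-bt are near-identical copies, between which reads may be split. Hbb-bs passed with any library left out, and the count of the list was 4 without Mir483Pat-KO replicate 1. The summed CPM of this list was 16402 to 21061 in WT and 19149 to 27162 in Mir483Pat-KO. Of 8 hepatocyte markers 7 were below 0 (median −0.13) and 1 fell (12.5%, beside 2.76% of all genes tested), Apoa1 (−0.30, adjusted p = 0.0262), though not without WT replicate 5 or Mir483Pat-KO replicates 3, 4 or 5, while Alb was at −0.18 (adjusted p = 0.19) and Ttr at −0.15 (adjusted p = 0.308). Summed hepatocyte CPM was 221197 to 248119 in WT and 199045 to 228856 in Mir483Pat-KO. The part of these cell types in the values of the 10 genes was not tested.

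Tissues that could be carried along with the liver were near the detection limit. Of 10 skeletal muscle markers 2 were tested, Mylpf (0.056, adjusted p = 0.84) and Neb (−0.056, adjusted p = 0.892), and the summed CPM of the 10 was 10.9 to 14.6 in WT and 11.4 to 14.1 in Mir483Pat-KO. Of 5 Schwann cell markers 2 were tested, among them Sox10 (−0.47, adjusted p = 0.262), with sums of 1.97 to 3.37 and 1.95 to 3.52 CPM. Of 7 bile duct markers tested 5 were below 0 (median −0.059), with Krt19 at −0.40 (adjusted p = 0.272), Krt7 at −0.34 (adjusted p = 0.279) and Prom1 at 0.19 (adjusted p = 0.351). Pancreatic acinar genes summed to 73.5 CPM in WT replicate 3 and to 17.6 to 31.8 CPM in the other 9 libraries, and Pnlip had a count of 0 in every library, which allows up to 3 counts in each. The 3 acinar genes tested were Cela1 (−0.15, adjusted p = 0.391), Cpa1 (−0.97, adjusted p = 0.451) and Ctrb1 (−1.25, adjusted p = 0.477). For each of the skeletal muscle, Schwann cell, bile duct and acinar lists 0 genes passed in edgeR, with 0 at an unadjusted p under 0.05.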

How the data were processed

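Whole liver RNA of 10 fetuses was sequenced as stranded polyA libraries with paired ends. The authors aligned reads to GRCm38 with STAR and deposited raw counts for each Ensembl gene, not normalized. How strand was handled in counting, the treatment of reads with several positions and any trimming are not given in the sources used here.

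Counts were tested in R 4.3.3 with edgeR 4.0.16 (TMM scaling, default filterByExpr, quasi-likelihood F-test, no covariates), the test the authors used. The Benjamini-Hochberg adjustment was made over 14098 genes. Genes passed at an adjusted p under 0.05 and were called with a fold change over 1.5 besides. CPM values use TMM-scaled library sizes. Intervals are at 95% and come from the standard error of the fit. Of the 55401 genes, 55141 matched a symbol in GENCODE M21 (GRCm38), which also gave positions and exon lengths. RefSeq sequences were those of GRCm38.p6: promoter entries were matched for 6 of the 10 genes, and mature sequences for both arms of Mir483. Totals of 10831350 to 14765880 counts per library bound the precision, and limits from a count of 0 cover counting error only.

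The 10 genes, the wider lists, the rule for named genes and the alternatives were chosen with earlier results of these data known. Named were the 10 genes, up to 3 genes of each list with the smallest p, and the 8 genes of average log2 CPM of at least 1 that deviated most like the 10. Of these, 2 list genes are not reported here. The lists share 2 genes, among them Pdgfra. The alternatives were RLE scaling, the Wald test of DESeq2 1.42.0, limma-voom (limma 3.58.1), the robust fit, glmTreat, 2 other filters, the replicate block, the number range as a covariate, the lower range alone, offsets for GC content and length, and each library left out. In a check for repeated libraries, the most alike of 20 same-group pairs had a chi-square of 4.54 per degree of freedom, beyond counting noise. On simulated data with 200 of 13986 genes changed 2-fold, the procedure recovered 89.5%, and 6.28% of its calls were unchanged genes. Figures were drawn with Python 3.11.15 and matplotlib 3.10.9.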

Additional observations from a re-analysis of the deposited data

Results flagged for a closer look

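The CPM values of the 77 genes reported from the set and the lists were examined in each group of 5 for a library that stood apart by Dixon's test (gap over range above 0.71). Of 154 groups 7 were found, none of them of the 10 stellate cell and collagen genes, and chance alone gives about 1 in 20. The high values of the acinar genes Ctrb1 (35.3 CPM, next highest 9.78) and Cpa1 (7.08 CPM, next 1.93) were both in WT replicate 3, as was the low value of Mmp9 (42.7 CPM, next lowest 55.7). In WT replicate 5, C1qa was high (105 CPM, next 90.9). Vldlr was low in WT replicate 1 (8.35 CPM, next 11.9). In Mir483Pat-KO, Ltbp1 was low in replicate 4 (7.4 CPM, next 10.2) and Pafah1b1 was low in replicate 1 (128 CPM, next 138).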

How the results depend on the processing

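None of the 10 stellate cell and collagen genes passed under RLE scaling, glmTreat, the number range as a covariate, the lower range alone or the GC content and length offsets. The number that passed was 2 with DESeq2, 1 with limma-voom, 1 with the robust fit, 5 without the low-count filter, 1 with at least 10 counts in every library (Pdgfrb) and 1 with the replicate block (Reln), and it ran from 0 to 4 with a library left out. Over all genes and both directions, 731 passed in the main fit, 1160 with DESeq2 and 753 with limma-voom. It was 765 with the robust fit, 1258 without the filter, 762 with at least 10 counts in every library and 1338 with the block. The number that passed and exceeded the 1.5-fold change was 0 in all fits but that without WT replicate 1, where it was 2 (range 0 to 2). Of 210 fits of single members 175 kept their direction and side of the threshold, 18 passed in addition and 17 changed sign, all 17 in Lum, Lrat and Acta2. Lum was 0.0047 with the range covariate and −0.14 to 0.025 with a library left out. Lrat was −0.10 in limma-voom, −0.071 with the block, −0.13 with the GC content and length offsets and −0.22 to 0.12 with a library left out. Acta2 was −0.0072 in limma-voom, −0.0035 with the block, −0.065 with the range covariate, −0.25 in the lower range alone and −0.17 to 0.11 with a library left out. The cause of these sign changes was not tested.

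Among all genes tested, 173 were called, 4 with glmTreat, which tests the fold change itself, 321 without the low-count filter, 21 in the lower range alone, which has 6 libraries, and 97 to 233 with a library left out (97 for Mir483Pat-KO replicate 4 and 115 for replicate 2). Of the other collagens 4 passed, with 8 in DESeq2, 0 with glmTreat, 15 without the filter, 1 in the lower range alone, 2 with the offsets and 2 to 11 with a library left out. Of 1402 fits of other named genes 93 no longer passed, 58 passed in addition and 11 changed sign. These 11 were Tpm1 in the lower range alone (−0.012), Mylpf with the range covariate (−0.039), Neb with the covariate (0.038) and in the lower range alone (0.066), Ctrb1 in limma-voom (1.3), and fits with a library left out for Mylpf (−0.001 to 0.13), Neb (3 fits, −0.18 to 0.03), Cpa1 (−1.28 to 0.47) and Ctrb1 (−1.58 to 0.60). Cpa1 and Ctrb1 were above 0 without WT replicate 3. The cause was not tested.

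Equal replicate numbers were checked for pairing. Deviations of same-numbered libraries correlated across genes at 0.0871 on average (−0.0496 to 0.261), against −0.0217 for other pairs, and the samples were treated as sharing only a number. With the replicate block 216 genes were called in place of 173. At the adjusted p alone, 5 other collagens passed in place of 4, beside 1338 of all genes tested in place of 731.

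With 5 fetuses a group the intervals of the 10 genes were wide, and a gene that did not pass is not shown to be unchanged. The number of other collagens that passed moved most when WT replicate 1 was left out, where it rose from 4 to 11. The number range is unevenly split between genotypes, and the low level of Des leaves 44 to 106 counts per library.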
